A study of Mus musculus with 186 samples.

Results

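The comparison was between the striatum of 12-week mice with both copies of Akap11 mutant (genotype Akap11 -/-, here KO, 5 libraries) and of 12-week mice with 1 copy mutant (Akap11 +/-, here HET, 5 libraries), so 10 of the 186 libraries in the series. They were chosen by the region, age and genotype in their labels. The 5 wild-type (WT) libraries of the same region and age were used for the step from 2 intact copies to 1. The series holds bulk RNA-seq of mice of these 3 genotypes in 6 brain regions at 4 and 12 weeks. Tissue was dissected from frozen brains, and stranded poly(A) libraries were made from 200 ng of total RNA each. The mutation carried by the allele, the strain and the sex are not in the labels, and the labels name no treatment. Nor do the labels say whether libraries of 1 group came from separate animals, so p-values measure the spread between these libraries, which may be technical.

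AKAP11 is a scaffold protein that binds protein kinase A (PKA) and the kinase GSK3, and it also carries PKA regulatory subunits to the autophagy machinery. PKA is the main effector of cyclic AMP in striatal projection neurons, where dopamine D1 receptors raise cyclic AMP and D2 receptors lower it. Rare loss-of-function variants in human AKAP11 raise the risk of bipolar disorder and schizophrenia, and carriers keep 1 intact copy.

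The libraries held 36.3 to 52.3 M counts in HET, 32.2 to 44.9 M in KO and 31.9 to 43.5 M in WT. The score of pan-striatal marker genes (mean log2(CPM + 1), where CPM is the count scaled to a common library size) was at least 9.84 in all 10 libraries and at most 7.11 in the 75 libraries of other regions at 12 weeks, so the markers matched the tissue label. For this comparison CPM was scaled by total counts alone, unlike the 12-week striatal CPM values and scores below. Ddx3y, on the Y chromosome, was at 44.2 CPM or more and Xist at 0.0890 CPM or less in all 15 striatal libraries at this age. Over 30 pairs of replicates, chi-square per degree of freedom was at least 12.8, so no pair looked like 1 library deposited again. The choroid plexus gene Ttr stood at 16.9 CPM in KO 4 and at most at 0.631 CPM in the other HET and KO libraries. On the first principal component, with 29.8% of the variance, KO libraries lay from -1.87 to 26.2 and HET libraries from -14.4 to 14.7. On the second, with 17.6% of the variance, KO libraries lay from -24.3 to -3.67 and HET libraries from -5.68 to 14.2. The 2 genotypes overlapped on both.

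Akap11 itself (chr14:78492246-78536808 on the minus strand, GRCm38, a protein-coding gene) was measured at 306, 354, 315, 376 and 340.5 CPM in the WT libraries, 179.9, 177, 174, 192 and 186 CPM in the HET libraries and 20.9, 24.3, 22.9, 15.4 and 21.1 CPM in the KO libraries. The 3 genotypes did not overlap, and the order followed the number of copies. KO stood at 11.5% of HET (log2 fold change -3.12 ± 0.10 (SE), adjusted p = 8.33e-12, edgeR quasi-likelihood test with Benjamini-Hochberg adjustment), and the HET minus WT difference was -0.89 ± 0.09 on the log2 scale. No gene tested within 2 Mb (0 of 19) or 5 Mb (0 of 37) of Akap11 was called in KO against HET, and 6 of 82 within 10 Mb were, where 4.79% of all genes tested were called (Bmp1, Fgf17, Gm27177, Pcdh20, Sftpc and Slc25a37, named after their values were seen).

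Loss of the second copy was accompanied by a broad change in the striatum. In KO against HET, 749 of 15622 genes passed an adjusted p of 0.05 (4.79%, edgeR quasi-likelihood test), 290 of them higher in KO (1.86%) and 459 lower (2.94%). Most differences were small: the median size of the log2 fold change among the called genes besides Akap11 was 0.41, and 119 changed by more than 1 on the log2 scale, 93 lower and 26 higher. KO and HET libraries did not overlap for 599 of the called genes. Among all genes tested, 953 (6.1%) had groups that did not overlap, 415 with KO higher (2.66%) and 538 with KO lower (3.44%), against 58 (0.371%) for HET and WT. Counts fell to 471 without HET 3, 447 without HET 5 and 457 without KO 5, so the number of genes, though not the direction of any of the 73 genes chosen by the naming rule, rests in part on single libraries. In bulk tissue, fewer cells of a type and less RNA per cell cannot be told apart.

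The step from 2 copies to 1 gave a single call. HET against WT called 1 of 15622 genes (0.0064%), Akap11 itself, with the same edgeR test, and the next smallest adjusted p was 0.9997. At an unadjusted p under 0.05, HET against WT held 334 genes and KO against HET 2758, and DESeq2 called 3 in HET against WT (Akap11, Gm13304 and Zbed6). The DESeq2 fit had no low-count filter before it, and it put Gm13304 at 23.9 and Zbed6 at 23.5 on the log2 scale. The edgeR fit called neither, and values of this size are not taken as measured changes. KO against WT, which shares its KO libraries with KO against HET, called 691 genes (4.42%), 285 higher (1.82%) and 406 lower (2.6%). Because the HET libraries enter both steps, the difference was tested directly: the change from 1 copy to none minus the change from 2 copies to 1 passed for 49 genes (0.314%), 11 with a positive difference (0.0704%) and 38 with a negative one (0.243%), Akap11 included. Of the 48 besides Akap11, 37 were lower and 11 higher in KO than in HET, by 0.27 to 3.69 on the log2 scale, and their HET minus WT differences ran from -0.18 to 0.50. For 700 of the 749 KO against HET calls the 2 steps were not shown to differ. The count in this test was 22 without HET 3 and 24 without HET 5.

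**Figure D1:**
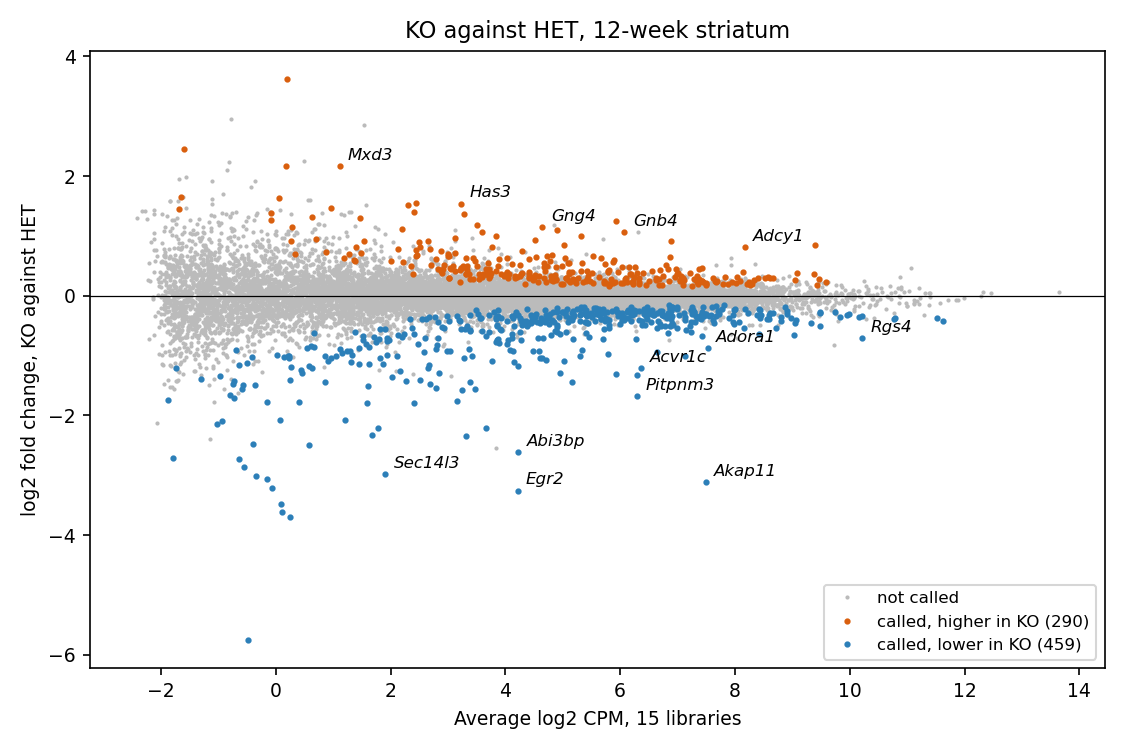
Log2 fold change of KO against HET (vertical axis) by average log2 CPM over 15 libraries (horizontal axis) for the 15622 genes tested in 12-week striatum. Orange points were called higher (290) and blue points lower (459) at an adjusted p under 0.05; Akap11 and Egr2 lie lowest of the labelled genes.

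Of the genes at an average log2 CPM of at least 1 with groups that did not overlap, the immediate-early transcription factor gene Egr2 had the largest fall. Egr2 stood at 34.8, 36.3, 37.3, 23.5 and 11.6 CPM in the HET libraries and 1.40, 3.92, 0.946, 2.64 and 6.09 CPM in the KO libraries. The KO libraries lay below every HET library, and HET libraries spread widely, from 11.6 to 37.3 CPM, much as the WT libraries did (10.2, 20.9, 31.4, 21.8 and 35.3 CPM). The KO level was 10.4% of HET (log2 fold change -3.25 ± 0.45 (SE), adjusted p = 4.87e-04, edgeR), and the 2 steps differed (adjusted p = 0.0377). Its RefSeq promoter (GRCm38.p6) is shown with 3 others, each the 250 bases before a start site, because their genes are results below and the windows hold a sequence that factors of the cyclic AMP or EGR pathways are known to bind. Capitals mark matches on either strand to the cyclic AMP response element (CRE, TGACGTCA), its core TGACG, the AP-1 motif TGANTCA, the EGR motif GCGNGGGCG or the CArG box. The windows are chr10:67537619-67537868 on the plus strand for Egr2, chr7:121392046-121392295 on the plus strand for Hs3st2, chr11:7063183-7063432 on the plus strand for Adcy1 and chr1:134235458-134235707 on the minus strand for Adora1.
Egr2: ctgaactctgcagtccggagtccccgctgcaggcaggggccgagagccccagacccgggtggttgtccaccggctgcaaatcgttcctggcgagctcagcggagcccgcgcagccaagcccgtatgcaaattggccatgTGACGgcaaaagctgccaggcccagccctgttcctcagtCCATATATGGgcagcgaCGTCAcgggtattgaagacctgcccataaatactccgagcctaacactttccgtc
Hs3st2: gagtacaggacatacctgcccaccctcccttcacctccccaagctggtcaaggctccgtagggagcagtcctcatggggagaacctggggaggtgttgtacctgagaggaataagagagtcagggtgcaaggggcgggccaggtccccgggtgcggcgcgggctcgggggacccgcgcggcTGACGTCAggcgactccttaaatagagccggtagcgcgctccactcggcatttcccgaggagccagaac
Adcy1: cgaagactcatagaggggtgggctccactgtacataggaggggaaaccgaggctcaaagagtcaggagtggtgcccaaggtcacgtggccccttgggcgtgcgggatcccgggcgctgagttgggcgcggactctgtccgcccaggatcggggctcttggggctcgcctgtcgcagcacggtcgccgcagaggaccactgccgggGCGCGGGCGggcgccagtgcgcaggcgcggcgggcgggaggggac
Adora1: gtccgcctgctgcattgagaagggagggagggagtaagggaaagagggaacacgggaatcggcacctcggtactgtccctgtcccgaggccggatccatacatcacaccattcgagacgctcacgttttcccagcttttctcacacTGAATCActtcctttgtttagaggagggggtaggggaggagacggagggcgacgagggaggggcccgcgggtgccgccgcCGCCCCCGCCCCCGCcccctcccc
Egr2 shows a CArG box and 2 copies of the CRE core, and Hs3st2 a full CRE. Adcy1 has an EGR match, and Adora1 an AP-1 match and overlapping EGR matches. Egr2 and Adora1 have several RefSeq start sites, and the window with the most matches is shown. A match describes the letters of the window and is not a site shown to be bound.

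Over all 32851 windows, the CRE was present in 1.55%, its core in 17.8%, AP-1 in 6.75%, EGR in 4.70% and the CArG box in 1.47%. Windows could be matched by symbol to 11581 of the genes tested, 215 that rose and 315 that fell, counting a gene if any of its windows held the motif. The CRE was in 3.03% of the matched genes, in 3.26% of those that rose and in 1.27% of those that fell. Its core was in 29.0%, 30.2% and 20.95%, and the EGR motif in 10.1%, 14.4% and 14.3%, in the same order. AP-1 was in 5.51%, 6.05% and 7.62% and the CArG box in 1.43%, 0.930% and 1.90%. These shares are descriptions without a test.

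Abi3bp and Igfbp6 were among the other large falls. Abi3bp, whose product binds extracellular matrix, stood at 24.7, 27.6, 25.6, 26.6 and 27.0 CPM in the HET libraries and 4.79, 5.10, 5.02, 2.79 and 3.82 CPM in the KO libraries. Every KO library was below every HET library, at 16.4% of the HET level (log2 fold change -2.61 ± 0.12 (SE), adjusted p = 1.12e-09, edgeR), while HET minus WT was 0.05 ± 0.11. Igfbp6, a secreted binder of insulin-like growth factors, stood at 13.5, 13.8, 13.5, 13.1 and 15.9 CPM in the HET libraries and 3.33, 2.29, 2.596, 2.37 and 3.10 CPM in the KO libraries. HET and KO were again apart (log2 fold change -2.35 ± 0.11 (SE), adjusted p = 1.09e-09, edgeR), with HET minus WT at 0.09 ± 0.10. For both genes the 2 steps differed (adjusted p = 7.80e-07 for Abi3bp and 7.59e-07 for Igfbp6).

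Sec14l3, a lipid-binding protein gene of ciliated cells, fell, with 4.66 to 6.36 CPM in HET and 0.284 to 1.02 CPM in KO (log2 fold change -2.98 ± 0.28 (SE), adjusted p = 1.32e-05, edgeR). It was the only called gene among 9 tested ependymal and choroid plexus markers, whose summed level overlapped between HET (27.0 to 75.7 CPM) and KO (29.0 to 72.1 CPM) and whose median log2 fold change was 0.58. Gpx6, a glutathione peroxidase gene, ranged over 10.2 to 22.4 CPM in HET and 1.87 to 6.64 CPM in KO (log2 fold change -2.21), and Tmprss6, a membrane serine protease gene, over 3.84 to 5.17 CPM in HET and 0.808 to 1.19 CPM in KO (-2.21). E230025N22Rik was tight in both groups, 6.18 to 7.23 CPM in HET and 1.83 to 2.01 CPM in KO (-1.80). Gm12500 (-2.32) and Gm26673 (-2.07) are annotated antisense to Ampd2 and Kcna6. The libraries were stranded, but the sources used here do not state whether the quantification used strand, so reads of these pairs may not be told apart.

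**Figure D2:**
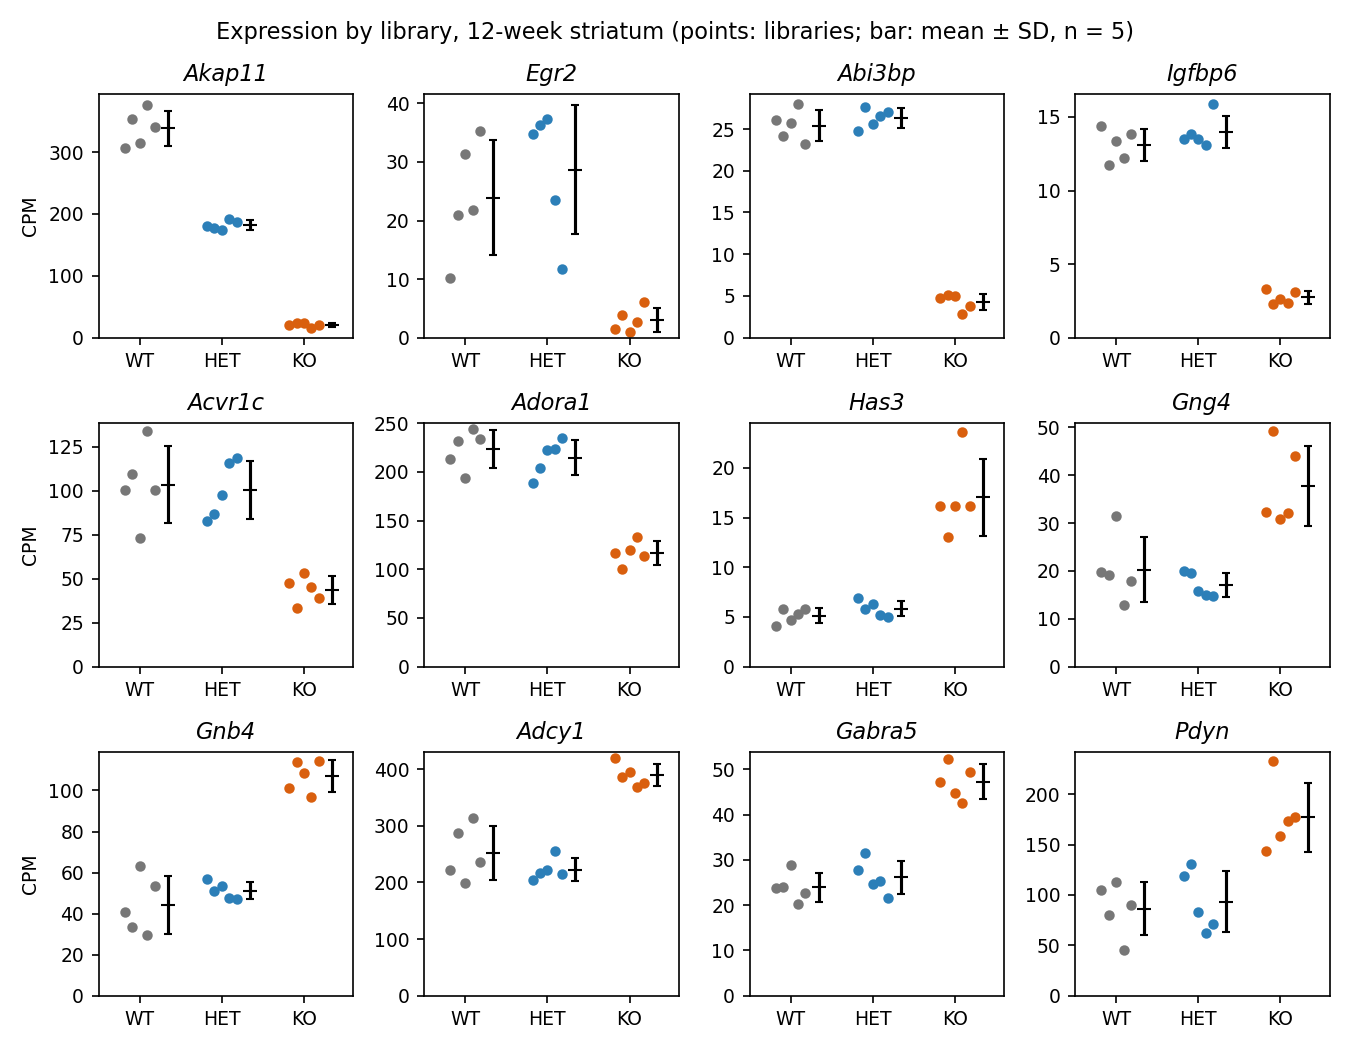
Expression in CPM (vertical axis, linear, from 0) in each of 5 WT, 5 HET and 5 KO libraries of 12-week striatum, with the mean and SD beside the points. Akap11 steps down with each genotype, whereas for the other 11 genes the HET libraries overlap the WT libraries and the KO libraries stand apart from HET.

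The largest rises were smaller than the largest falls. Mxd3, a MAX-binding repressor gene, was at 1.04, 1.39, 1.34, 0.630 and 0.311 CPM in the HET libraries and 3.01, 3.20, 3.87, 5.27 and 5.79 CPM in the KO libraries. The groups were apart (log2 fold change 2.16 ± 0.41 (SE), adjusted p = 0.00494, edgeR), at low levels, and Mxd3 overlaps Prelid1 on the other strand. Has3, which makes hyaluronan of the extracellular matrix, was at 6.86, 5.84, 6.31, 5.21 and 4.96 CPM in the HET libraries and 16.2, 13.1, 16.1, 23.6 and 16.2 CPM in the KO libraries. KO was 2.91 times HET (log2 fold change 1.54 ± 0.15 (SE), adjusted p = 1.24e-05, edgeR), the 2 steps differed (adjusted p = 0.0348), and the gene overlaps Chtf8 on the other strand.

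Tunar rose, with 4.69 to 9.18 CPM in HET and 11.4 to 22.6 CPM in KO (log2 fold change 1.37), and Mrvi1 (1.29), Adgra1 (1.19) and Epha10 (1.10) rose without overlap between the groups. Epha10 encodes an Eph receptor. Peg10, an imprinted gene derived from a retrotransposon, ranged over 28.9 to 62.8 CPM in HET and 66.4 to 177 CPM in KO (1.25, adjusted p = 0.0283), but KO 2 alone held 177 CPM, and the call was lost without HET 3, HET 4, HET 5, KO 2 or KO 5 (largest adjusted p 0.0829). E530001K10Rik rose by 1.40. Hs3st2, a heparan sulfate sulfotransferase gene whose promoter is printed above, was at 9.70, 11.9, 12.2, 9.08 and 9.03 CPM in the HET libraries and 21.7, 18.4, 19.1, 21.8 and 23.2 CPM in the KO libraries (log2 fold change 1.01 ± 0.11 (SE), adjusted p = 4.02e-05, edgeR), and its 2 steps differed (adjusted p = 0.0153).

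Genes of the cyclic AMP pathway were next. Counts of list members stand against 1.86% of all genes tested called higher and 2.94% called lower, so a list of this size without a call is near the share over all genes. No member of 9 PKA regulatory, catalytic and inhibitor genes was called (4.79% of all genes in either direction), and their values ran from -0.22 to 0.26 (list median -0.02, all tested genes -0.0018). Among 12 AKAP11 partners, Gsk3b, the kinase that AKAP11 binds, fell and 11 were not called. Gsk3b stood at 316, 346, 370.4, 398 and 361 CPM in the HET libraries and 278, 268, 309, 289.5 and 282 CPM in the KO libraries. The groups did not overlap (log2 fold change -0.33 ± 0.08 (SE), adjusted p = 0.0201, edgeR), and the call was lost without HET 3, HET 4, KO 2 or KO 5 (largest adjusted p 0.0560). Of 15 tested A-kinase anchoring protein genes besides these, Akap3 rose at a level under 1 CPM (0.0890 to 0.267 CPM in HET and 0.370 to 0.638 CPM in KO; lost without HET 5 or KO 3, largest adjusted p 0.0606) and Wasf1, a regulator of actin branching, fell (300.2 to 329.5 CPM in HET and 236 to 276 CPM in KO; lost without HET 3, HET 5, KO 2, KO 3 or KO 5, largest adjusted p 0.0817), while 13 did not pass.

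Of 8 adenylyl cyclase genes, which make cyclic AMP, 1 rose and none fell, where 1.86% of all genes rose and 2.94% fell. Adcy1, a calcium-stimulated cyclase, was at 204, 216, 222, 256 and 215 CPM in the HET libraries and 420.4, 387, 396, 369 and 376 CPM in the KO libraries. KO libraries stood 1.75 times above HET with no overlap (log2 fold change 0.81 ± 0.10 (SE), adjusted p = 2.02e-04, edgeR), and the 2 steps differed (adjusted p = 0.0241). Adcy5, the main striatal cyclase, had -0.17 (adjusted p = 0.221). Among 19 phosphodiesterase genes, which degrade cyclic nucleotides, Pde2a (1013 to 1110 CPM in HET and 784 to 929 CPM in KO; -0.32) and Pde9a (16.8 to 21.3 CPM in HET and 12.0 to 15.6 CPM in KO; -0.42) fell and 17 did not pass; the Pde9a call was lost without HET 1, HET 2, KO 3 or KO 4 (largest adjusted p 0.0629).

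Of 16 genes of the DARPP-32 and phosphatase network, 3 fell (2.94% of all genes fell) and none rose, with a list median of -0.14. Ppp3ca, the catalytic subunit of calcineurin, a calcium-dependent phosphatase that AKAPs also anchor, was at 2792, 3179, 3285, 3539 and 3217 CPM in the HET libraries and 2522, 2218, 2761, 2501 and 2389 CPM in the KO libraries (log2 fold change -0.37 ± 0.07 (SE), adjusted p = 0.00740, edgeR). All KO libraries were lower than all HET libraries. The regulatory subunit gene Ppp3r1 fell by 0.31, with overlapping groups; its call was lost without HET 3, HET 4, HET 5, KO 1, KO 2, KO 4 or KO 5 (largest adjusted p 0.0622). The third, Rcsd1, ranged over 5.16 to 6.32 CPM in HET and 3.47 to 4.51 CPM in KO (-0.54); it is known as a regulator of actin capping and not as a member of this network, so that 2 of the other 15 genes fell. None of 11 CREB and coactivator genes was called (median 0.06), and none of 11 ERK feedback inhibitors (median 0.17).

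Activity-regulated genes changed at single members. Of 22 transcription factor genes of this kind, 2 fell (Egr2 and Egr1), where 2.94% of all genes fell, and 20 were not called, with a list median of 0.18. Egr1 was at 536, 792, 815, 515 and 432 CPM in the HET libraries and 339, 326, 392, 421 and 491 CPM in the KO libraries (-0.65, adjusted p = 0.0367); KO 5 lay above the lowest HET library. That call was lost without HET 2, HET 3, KO 1, KO 2, KO 3 or KO 4 (largest adjusted p 0.109) and with only HET and KO in the fit (0.0538). Of 20 effector genes, Rasd1, a small GTPase gene, rose (1.52), Inhba, an activin subunit, and Rgs4 fell, and 17 were not called.

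Inhba ranged over 5.47 to 9.50 CPM in HET and 2.62 to 5.10 CPM in KO (-1.15) and KO 2 was the highest KO library. Rasd1 ranged over 1.62 to 5.23 CPM in HET and 5.16 to 12.2 CPM in KO, with 1 HET library inside the KO range, and lost its call without HET 3, HET 5, KO 4 or KO 5 (largest adjusted p 0.0660). Rgs4, which shortens G protein signals, was at 1013, 1335, 1333, 1358 and 1545 CPM in the HET libraries and 832, 763, 932, 808 and 679.8 CPM in the KO libraries (log2 fold change -0.71 ± 0.13 (SE), adjusted p = 0.00439, edgeR), with no overlap.

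In the TGF-beta pathway, of which activin is a ligand family, 3 of 24 genes fell, where 2.94% of all genes fell, and none rose (median -0.03). Acvr1c, the ALK7 type I receptor gene, was at 82.9, 87.1, 97.4, 116 and 119 CPM in the HET libraries and 47.4, 33.2, 53.1, 45.2 and 38.9 CPM in the KO libraries. The KO libraries held 43.4% of the HET level (log2 fold change -1.20 ± 0.15 (SE), adjusted p = 2.01e-04, edgeR). Pmepa1 (-0.62, 122 to 136 CPM in HET and 68.1 to 105 CPM in KO) and Skil (-0.51, 100.1 to 142 CPM in HET and 81.1 to 101 CPM in KO), which both restrain SMAD signals, also fell. In the GSK3 and Wnt pathway, 1 of 28 genes rose and 1 fell. Axin2, a feedback inhibitor of Wnt signals, ranged over 19.7 to 23.6 CPM in HET and 30.3 to 34.4 CPM in KO (0.55) without overlap, and Tcf7 fell by 0.50, a call lost without HET 2, HET 3, HET 4, HET 5 or any 1 KO library (largest adjusted p 0.0992) and with 1 surrogate variable (0.0547).

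**Figure D3:**
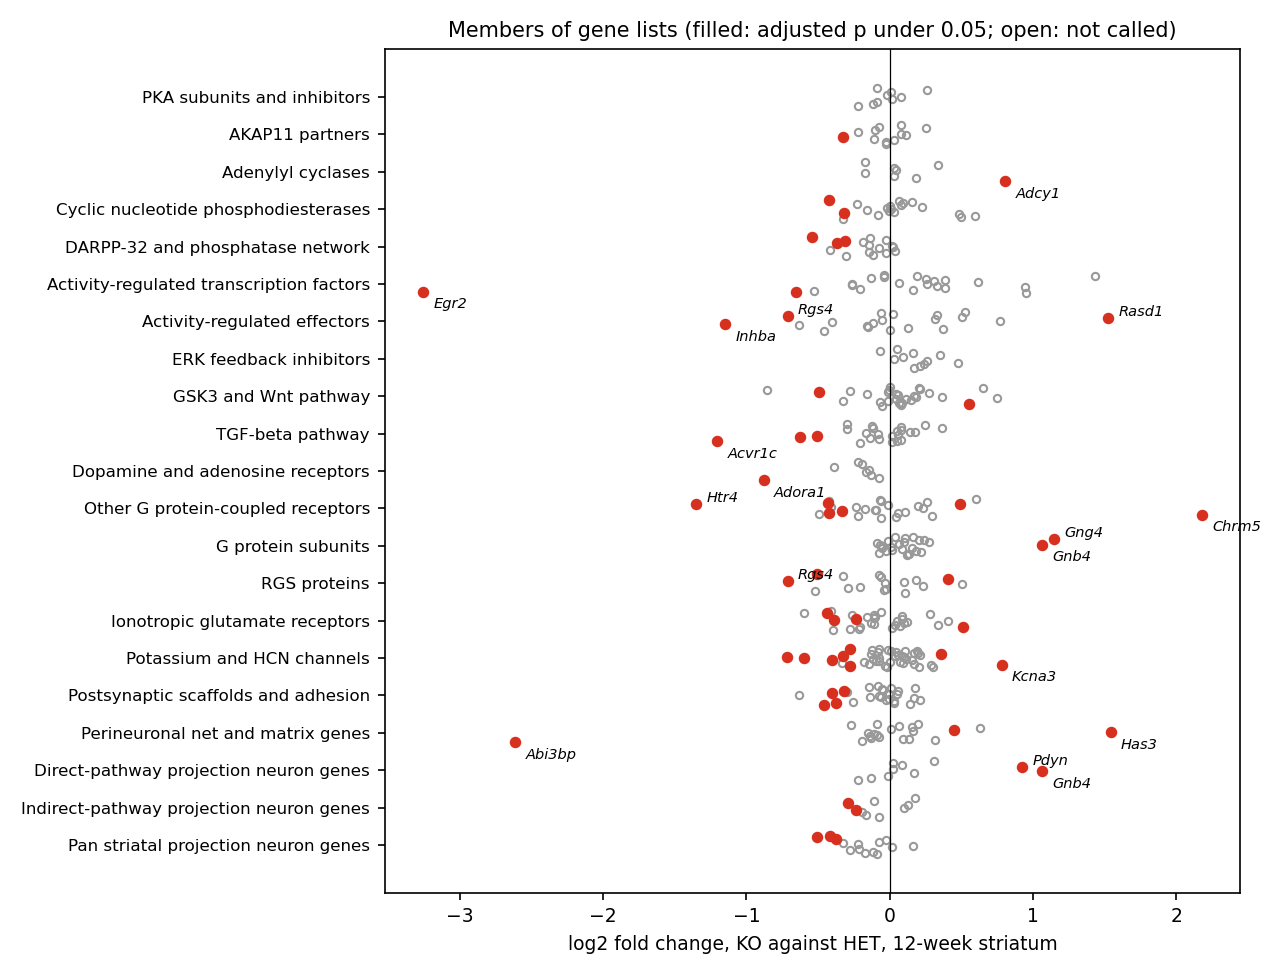
Log2 fold change of KO against HET in 12-week striatum (horizontal axis) for the tested members of 21 gene lists (rows). Filled red points passed an adjusted p of 0.05 and open grey points did not; most members of every list lie near 0 and few, such as Egr2, Abi3bp and Adcy1, stand away.

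Of 8 tested genes of dopamine, adenosine and related striatal receptors, 1 fell and none rose. Over all genes tested, 1.86% rose and 2.94% fell. Adora1, the inhibitory adenosine A1 receptor, was at 189, 204, 222, 224 and 234 CPM in the HET libraries and 116, 99.9, 120.2, 133 and 113 CPM in the KO libraries. Every KO library was lower than every HET library, at 54.3% (log2 fold change -0.88 ± 0.08 (SE), adjusted p = 1.01e-05, edgeR), and the 2 steps differed (adjusted p = 0.0123). Drd1 (-0.13), Drd2 (-0.16) and Adora2a (-0.07) were not called. Among 26 other receptor genes coupled to G proteins, Chrm5 and Htr2c rose and 4 fell, Htr4 among them.

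Chrm5, a muscarinic receptor gene, was at 0.464, 0.640, 0.659, 0.315 and 0.334 CPM in the HET libraries and 1.32, 2.99, 1.94, 2.24 and 2.51 CPM in the KO libraries, low but apart (log2 fold change 2.18 ± 0.29 (SE), adjusted p = 3.79e-04, edgeR). Htr4, a serotonin receptor coupled to cyclic AMP production, ranged over 4.00 to 6.40 CPM in HET and 1.11 to 2.88 CPM in KO (-1.35). Htr2c ranged over 58.5 to 72.9 CPM in HET and 77.9 to 97.1 CPM in KO (0.49).

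Of 26 G protein subunit genes, 2 rose and none fell, where 1.86% of all genes rose and 2.94% fell. Gng4, a gamma subunit, was at 20.03, 19.5, 15.8, 14.98 and 14.8 CPM in the HET libraries and 32.4, 49.2, 30.9, 32.1 and 44.0 CPM in the KO libraries. KO was 2.21 times HET without overlap (log2 fold change 1.15 ± 0.19 (SE), adjusted p = 0.00217, edgeR). Gnb4, a beta subunit, was at 56.9, 51.1, 53.3, 47.8 and 47.0 CPM in the HET libraries and 101, 114, 109, 97.0 and 114 CPM in the KO libraries (log2 fold change 1.06 ± 0.16 (SE), adjusted p = 6.80e-04, edgeR), also without overlap. Of 17 RGS protein genes, Rgs6 rose (0.41) and Rgs4 and Rgs9 fell, and Rgs9, the striatal regulator of D2 and opioid signals, ranged over 745 to 936 CPM in HET and 502 to 608 CPM in KO (-0.51).

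Neurotransmission genes changed at single members, where 1.86% of all genes rose and 2.94% fell. Gabra5, a GABA-A receptor subunit of extrasynaptic sites, was the only one of 14 subunits called; it was at 27.8, 31.5, 24.6, 25.4 and 21.6 CPM in the HET libraries and 47.3, 52.4, 44.9, 42.7 and 49.4 CPM in the KO libraries (log2 fold change 0.85 ± 0.10 (SE), adjusted p = 8.24e-05, edgeR). Among 29 ionotropic glutamate receptor and auxiliary genes, Cacng7, an AMPA receptor auxiliary subunit, rose (91.4 to 108 CPM in HET and 118 to 149.6 CPM in KO; 0.51), whereas Gsg1l (269 to 314 CPM in HET and 174 to 232 CPM in KO; -0.44), Grik2 (-0.39) and Grik3 (-0.23) fell.

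Of 42 potassium and HCN channel genes, 2 rose and 6 fell, where 1.86% of all genes rose and 2.94% fell. Kcnh3 (152 to 186 CPM in HET and 86.2 to 131 CPM in KO; -0.60) and Kcnh4 (76.8 to 119 CPM in HET and 48.9 to 64.4 CPM in KO; -0.72), of the ether-a-go-go-like family, fell and Kcna3 (4.38 to 6.48 CPM in HET and 7.33 to 9.92 CPM in KO; 0.78) rose, all without overlap. Of 23 calcium and sodium channel genes 4 fell and none rose (median -0.15): Cacnb1 (-0.46), Cacnb3 (-0.51), Cacna1h (-0.32) and Scn4b (-0.42). The calls of 3 of these were lost in some fits with 1 library left out. Cacnb3 was lost without HET 5 (adjusted p 0.0520). Cacna1h was lost without HET 1, HET 5, KO 2, KO 4 or KO 5 (largest 0.0920) and with only HET and KO in the fit (0.0512). Scn4b was lost without HET 3, HET 4, HET 5, KO 2, KO 4 or KO 5 (largest 0.106).

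At the synapse, 4 of 26 postsynaptic scaffold and adhesion genes fell, where 2.94% of all genes fell, and none rose. Camk2b, a subunit of calcium/calmodulin kinase II, was at 1867, 1949, 2013, 1819 and 1967 CPM in the HET libraries and 1599, 1358, 1530, 1430 and 1493 CPM in the KO libraries (log2 fold change -0.38 ± 0.05 (SE), adjusted p = 5.39e-04, edgeR). Baiap2 (645 to 817 CPM in HET and 473 to 548 CPM in KO; -0.46) and Lrrtm1 (80.0 to 96.1 CPM in HET and 60.1 to 70.4 CPM in KO; -0.40) did not overlap either. Of 30 vesicle and release genes, Syp, a synaptic vesicle membrane protein, rose, with 476 to 505 CPM in HET and 605 to 677 CPM in KO (0.38), with the steps differing (adjusted p = 0.0497), and Unc13c fell (-0.41), with overlapping groups. The Unc13c call was lost without HET 1, HET 2, HET 3, HET 4 or any 1 KO library (largest adjusted p 0.108), with only HET and KO in the fit (0.0574) and with 1 surrogate variable (0.0513).

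In the matrix and perineuronal net list, Has3 and Lgi2 (0.45) rose and Abi3bp fell among 21 tested genes. Over all genes tested, 1.86% rose and 2.94% fell.

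Marker genes of striatal cells were then compared. Of 14 pan-striatal projection neuron markers, 3 fell (Rgs9, Scn4b and Rarb, a retinoic acid receptor gene, 154 to 205 CPM in HET and 134 to 144 CPM in KO), where 2.94% of all genes fell, and none rose; the list median was -0.19, and the mean scores overlapped (HET 9.89 to 10.15, KO 9.80 to 9.95). Of 10 direct-pathway markers 2 rose (1.86% of all genes rose), Pdyn and Gnb4, and 8 were not called, with values from -0.22 (Chrm4) to 0.31 (Tac1). The list median was 0.05. The mean score of this list was higher in every KO library (6.14 to 6.23) than in every HET library (5.89 to 6.01), as was the summed level (1178 to 1278 against 1008 to 1167 CPM); Pdyn and Gnb4 count in both, and Drd1 itself was not called (-0.13). Pdyn, the prodynorphin gene, was at 119, 131, 83.3, 62.1 and 71.6 CPM in the HET libraries and 143, 233, 159, 173 and 177 CPM in the KO libraries (log2 fold change 0.92 ± 0.23 (SE), adjusted p = 0.0299, edgeR). The groups did not overlap, and the call was lost without HET 3, HET 4, HET 5, KO 2, KO 4 or KO 5 (largest adjusted p 0.0873).

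Of 9 tested indirect-pathway markers, Ptprm (-0.29) and Grik3 (-0.23) fell, both with overlapping groups, and 7, Drd2 and Penk among them, were not called. Over all genes tested, 2.94% fell. Ptprm lost its call without HET 3, HET 4, HET 5, KO 1, KO 2, KO 3 or KO 4 (largest adjusted p 0.0849). Grik3 lost its call without HET 2, HET 3, HET 4, HET 5, KO 1, KO 2 or KO 3 (largest 0.0944), with no low-count filter (0.0529) and with only HET and KO in the fit (0.0697). Sst, a peptide of interneurons, rose by 0.23 and lost that call without any 1 library except KO 2 (largest adjusted p 0.126).

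Marker lists of oligodendrocytes (0 of 15), their precursors (0 of 7), astrocytes (0 of 12), microglia (0 of 12), cortical excitatory neurons (0 of 8), thalamic neurons (0 of 10), midbrain dopamine neurons (0 of 6) and leptomeningeal cells (0 of 8) held no called gene, and their summed levels overlapped between HET and KO. Over all genes tested, 4.79% were called in either direction, so a list of this size without a call is near that share. Of 14 endothelial and mural markers, only Tagln, a smooth muscle gene, was called, and it fell (-1.57, 7.12 to 23.1 CPM in HET and 2.69 to 5.34 CPM in KO). HET 2 stood highest at 23.1 CPM, and the Tagln call was lost without KO 1, KO 3 or KO 5 (largest adjusted p 0.0637). The other 13 members were not called and all had positive values, with a list median of 0.17.

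Housekeeping groups held no called gene among 22 heat shock, 27 oxidative phosphorylation and 27 cytosolic ribosomal protein genes (4.79% of all genes were called). The median of the ribosomal list was 0.11, with 26 of 27 members positive, and that of all tested genes -0.0018. None of 10 schizophrenia rare-variant genes was called. Of 31 autophagy and lysosome genes, Atp6v1a, a proton pump subunit, rose by 0.20, a call lost without HET 1, HET 3, HET 4, HET 5, KO 2, KO 3, KO 4 or KO 5 (largest adjusted p 0.0917). Of 17 interferon-response genes, Ifi27l2a fell (0.760 to 1.15 CPM in HET and 0.131 to 0.264 CPM in KO; -2.47) without overlap, and Lgals3bp rose by 0.49, lost without HET 3 or HET 5 (largest 0.0608).

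The 4-week striatum gave the same contrast in other libraries, 5 KO, 5 HET and 5 WT. In 4 of those 15 (3 KO, 1 WT) the cortical marker score was at least 4.84, against at most 3.44 in the other 11, and its part in the 4-week values was not tested beyond leaving these libraries out. KO against HET called 599 of 15425 genes at 4 weeks (3.88%), 292 higher (1.89%) and 307 lower (1.99%). Leaving Akap11 aside, 745 of the 12-week calls could be tested at 4 weeks, and 693 of these (93.0%) had the same sign, against 64.5% of all 15263 genes tested at both ages. Of the 745, 271 were also called at 4 weeks with the same sign and 0 with the opposite sign. Without the 4 libraries, 90.6% had the same sign, against 57.8% of all genes.

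Egr2 had a KO minus HET difference of -3.66 at 4 weeks (adjusted p = 6.92e-05, edgeR), Sec14l3 of -3.33 (6.09e-05), Gng4 of 1.32 (5.00e-05), Acvr1c of -1.24 (0.0144) and Adcy1 of 0.93 (0.00189). Other genes called at 12 weeks were not called at 4 weeks, such as Adora1 (-0.27, 0.372), Gsk3b (-0.22, 0.317), Rgs4 (-0.69, 0.195) and Camk2b (-0.22, 0.511). Grik3 had the opposite sign at 4 weeks (0.25, 0.343). The values so far use all 4-week libraries, among them the 3 KO libraries of high cortical score. At 4 weeks the SD was larger in KO than in HET for Adora1 (52.5 against 5.74 CPM), Gsk3b (74.3 against 29.9), Rgs4 (540 against 232) and Camk2b (394 against 80.9). A missing call at 4 weeks therefore does not show a difference between ages. Values without those libraries are given only for Abi3bp and Igfbp6. Abi3bp (-0.67, adjusted p = 0.558) and Igfbp6 (-0.37, 0.738) were not called at 4 weeks with all libraries, and both values changed when the libraries of high cortical score were left out, a setting chosen after seeing the data. At 4 weeks Abi3bp stood at 11.9, 10.6, 15.5, 9.02 and 6.88 CPM in the HET libraries and 2.43, 23.7, 3.85, 2.37 and 1.82 CPM in the KO libraries, so that KO 51, 1 of those 4, was the highest and the other KO libraries were below every HET library. Igfbp6 stood at 5.04, 5.60, 8.21, 5.62 and 5.91 CPM in HET, at 0.820 and 0.869 CPM in KO 12 and KO 932, and at 6.98, 9.45 and 5.30 CPM in KO 51, KO 161 and KO 163, the 3 KO libraries of high cortical score. Without KO 51 the Abi3bp difference was -2.05 (adjusted p = 5.31e-04, edgeR), and no other single library changed either gene's call. Without the 4 libraries both genes were called, Abi3bp at -2.36 (9.02e-04) and Igfbp6 at -2.84 (3.13e-05), with 2 KO libraries left.

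The test of the age difference itself called 0 of 15990 genes by edgeR (0%), with 1278 at an unadjusted p under 0.05, and 1 by DESeq2, Gpcpd1; the smallest edgeR adjusted p was 0.112. Without the 4 libraries edgeR also called 1 gene, Gpcpd1 (-0.56, adjusted p = 0.0486). The age difference of Abi3bp was -1.92 (adjusted p = 0.519) with all libraries and -0.24 (0.810) without the 4, and that of Igfbp6 was -1.97 (0.519) and 0.50 (0.488), so no difference between ages was shown for either gene.

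The 593 genes called at 4 weeks besides Akap11 gave a readout that the 12-week libraries did not choose. Each 12-week library was scored by the mean of their log2(CPM + 1) values, signed by the 4-week direction and set to 0 at the WT mean. WT libraries ran from -0.0331 to 0.0760, HET libraries from -0.0484 to 0.0292 and KO libraries from 0.356 to 0.413. HET libraries (mean -0.0109 ± 0.0303, SD, n = 5) overlapped WT libraries, and KO libraries (0.377 ± 0.0252) lay apart from both. The median signed difference over the genes was -0.02 for HET minus WT and 0.32 for KO minus HET. With the 293 genes called without the 4 libraries of high cortical score, HET averaged 0.00384 and KO ran from 0.482 to 0.537.

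**Figure D4:**
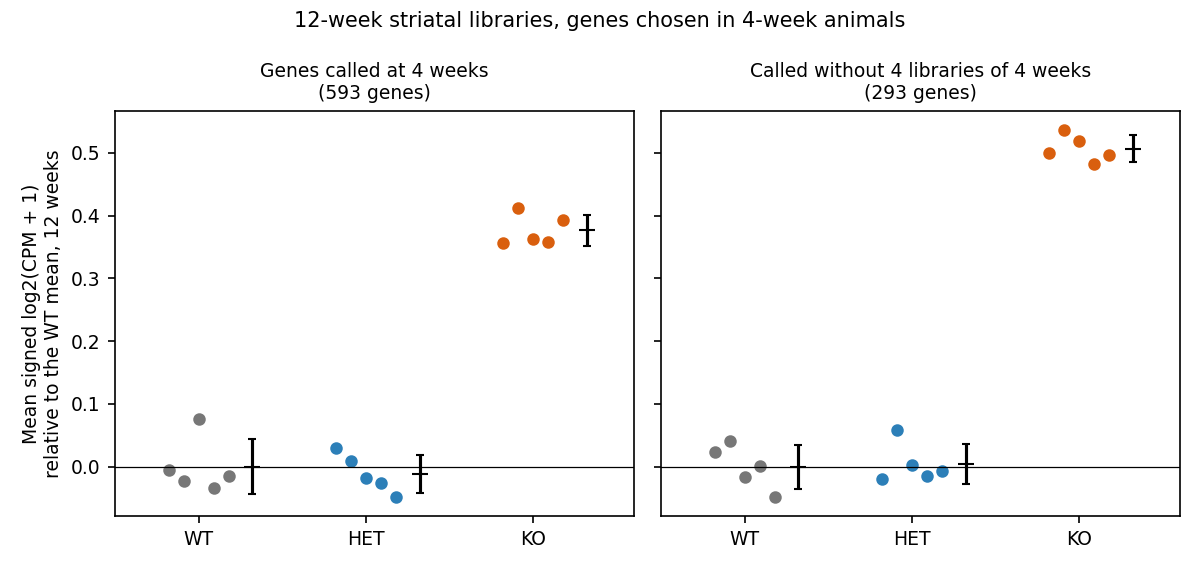
Score of each 12-week striatal library (vertical axis: mean signed log2(CPM + 1), WT mean at 0) for genes called KO against HET at 4 weeks, with mean and SD of 5 libraries a genotype. On the left (593 genes) and on the right (293 genes, called without 4 of the 4-week libraries) HET libraries overlap WT libraries and all KO libraries lie above both, from 0.356 on the left.

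The same contrast in the other 5 regions at 12 weeks called few genes, Akap11 among them. In the substantia nigra 6 genes were called (0.0364%), in each cortical area 2 (0.0126% somatosensory, 0.0123% prefrontal), and in the thalamus (0.0064%) and hippocampus (0.00608%) Akap11 alone, all of them lower in KO. Besides Akap11, the cortical calls were Ccdc3 in the somatosensory area (-0.54) and Sccpdh in the prefrontal area (-0.42), both named after their values were seen. The calls in substantia nigra included Gsg1l (-0.52) and Pmepa1 (-0.42), which had also fallen in striatum (-0.44 and -0.62). A direct test set the striatal KO minus HET difference against its average over those regions, and 524 of 17860 genes passed (2.93%), 262 in each direction (1.47% each). Of the 749 genes called in striatum, 373 (49.8%) passed this test, and they made up 71.2% of the genes that passed it. For the other striatal calls no regional difference was shown. The labels do not say whether libraries of different regions came from the same animals; a limma-voom fit that blocks on genotype and sample number called 711.

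For Akap11 no regional difference was shown (-0.23, adjusted p = 0.316). Egr2 differed by -3.55 (adjusted p = 0.00102), Abi3bp by -2.65 (1.28e-12), Igfbp6 by -2.30 (8.76e-11), Adora1 by -0.90 (5.89e-11) and Chrm5 by 2.91 (1.91e-06). Chrm5 was too low to be tested in the somatosensory area and thalamus by themselves, and its difference was 0.13 in the prefrontal area, -0.16 in hippocampus and -0.23 in substantia nigra. Rises also differed, with Has3 at 1.42 (2.73e-05), Gng4 at 1.15 (1.31e-04), Gnb4 at 1.07 (5.03e-04) and Adcy1 at 0.68 (3.31e-05). Arhgap36 differed by 3.26 (3.15e-04), but was not called in striatum alone (2.86, adjusted p = 0.0621), where its values were 2.597, 0.880, 0.227, 0.429 and 0.311 CPM in the HET libraries and 4.495, 14.96, 6.62, 2.11 and 4.89 CPM in the KO libraries. Its striatal call depends on the setting: it passed with DESeq2 (adjusted p = 0.0235), with only HET and KO in the fit (0.0262), with 1 surrogate variable (0.00416) and without HET 1 (log2 fold change 3.86, 0.0216). For Gpx6 (-1.71, 0.334) and Pdyn (0.78, 0.522) no regional difference was shown. Outside striatum, Gpx6 was high enough to be tested by itself only in thalamus (-0.58), and Egr2 was too low to be tested there.

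**Figure D5:**
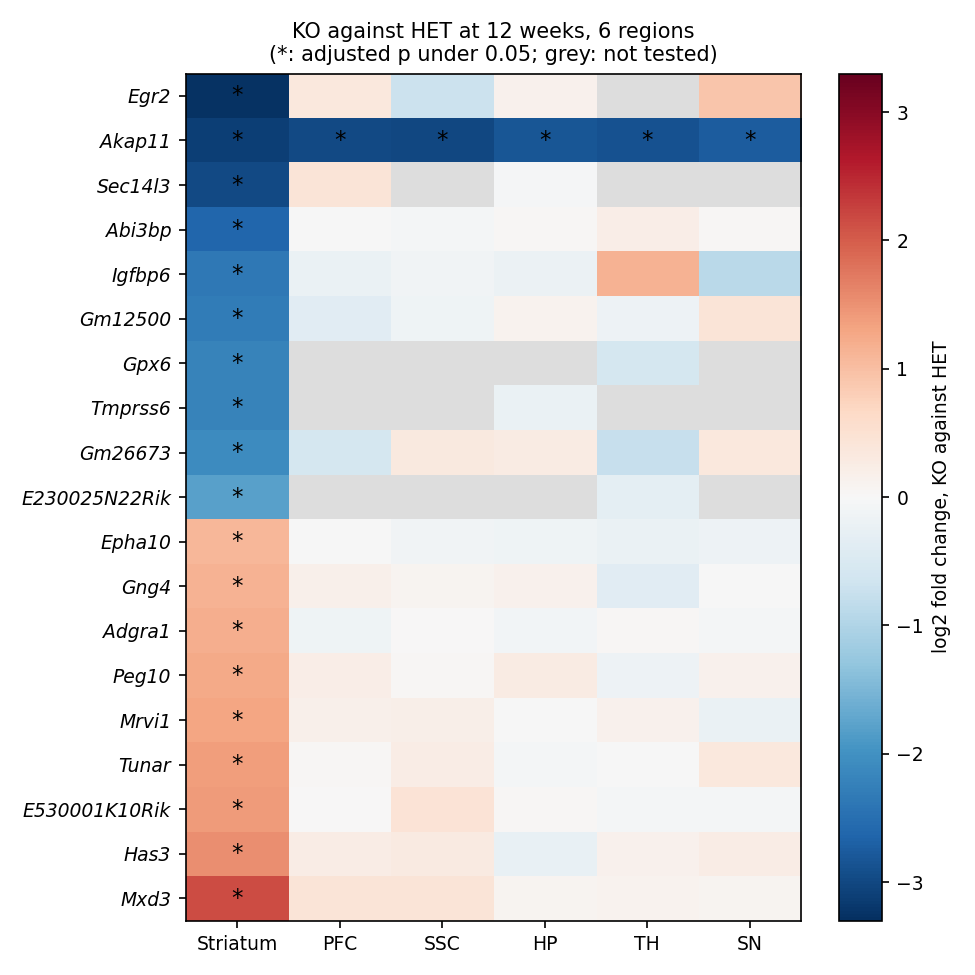
Log2 fold change of KO against HET at 12 weeks (colour) for Akap11 and 18 of the genes with the largest falls and rises in striatum (rows), in 6 regions: striatum, the prefrontal (PFC) and somatosensory (SSC) cortices, thalamus (TH), hippocampus (HP) and substantia nigra (SN). Asterisks mark an adjusted p under 0.05 in that region and grey cells were not tested; only Akap11 carries asterisks in all 6 columns.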

How the data were processed

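The authors deposited 1 table of expected counts per gene symbol, for 28338 symbols and 186 libraries. Per the submitters' processing notes it was made with Salmon and mm10; the version, annotation and strand setting are not given. Of the values above 0, 77.9% were not whole, and all were rounded here. Replicates were not pooled.

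Library groups came from the labels. The 15 striatal libraries at 12 weeks were fitted together in edgeR 4.0.16 (R 4.3.3) with TMM scaling, filterByExpr by genotype and the quasi-likelihood test, with Benjamini-Hochberg adjustment over all 15622 genes and a threshold of 0.05. CPM values use the same scaling, except in the comparison of pan-striatal scores between regions, and list scores are means of log2(CPM + 1). The 4-week, age and region fits were made the same way. Alternatives were relative log expression factors, DESeq2 1.42.0, no filter, 2 genotypes only, 1 surrogate variable (sva 3.50.0), a replicate block, each library left out, and limma 3.58.1. The fits were first run on simulated counts with the same dispersion for every gene. That run checks how the calls are made and cannot give their error rate in these libraries. Gene positions are from GENCODE M21 (GRCm38), matched by symbol for 96.9% of genes, and promoters from RefSeq GRCm38.p6.

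Named genes were Akap11, the 10 largest rises and 10 largest falls among called genes without overlap whose average log2 CPM reached 1, up to 3 called members of each of 45 lists by p, the 3 largest each way in the step test, and the 2 largest each way in the age and region tests. The members and lists were chosen with earlier results of these data known. Expected counts share reads of similar genes by estimate, so overlapping genes and close paralogs are less certain. Results for a few genes that these rules name are not reported here.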

Additional observations from a re-analysis of the deposited data

Results flagged for a closer look

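A group of 5 libraries was flagged if 1 library stood far from the other 4. For independent groups of normally spread values, chance alone flags about 1 in 20. The groups here share the same 10 libraries, and an excess over that rate was not tested. In 14 of 148 groups, over the named genes in HET and KO, 1 library stood far from the other 4. In the HET group this was HET 5 for Igfbp6 (15.9 CPM, others 13.1 to 13.9) and Sst (157 CPM, others 168 to 172), HET 3 for E530001K10Rik (4.16 CPM, others 3.26 to 3.46) and Wasf1 (329.5 CPM, others 300.2 to 305), and HET 1 for Adgra1 (9.998 CPM, others 6.64 to 7.56), Skil (100.1 CPM, others 130.5 to 142) and Arhgap36 (2.597 CPM, others 0.227 to 0.880). HET 2 stood apart for Tcf7 (31.1 CPM, others 20.9 to 22.2) and Tagln (23.1 CPM, others 7.12 to 8.78), and HET 4 for Cacng7 (108.5 CPM, others 91.4 to 94.3). In the KO group it was KO 2 each time: Peg10 (177 CPM, others 66.4 to 92.2), Wasf1 (236 CPM, others 270.2 to 276.5), Inhba (5.10 CPM, others 2.62 to 3.01) and Baiap2 (473 CPM, others 534 to 548).

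The KO minus HET difference in striatum departed from the mean of the other 5 regions, by the test of that difference, for Egr2 (-3.55), Abi3bp (-2.65), Chrm5 (2.91) and Arhgap36 (3.26). A limma-voom fit that blocks on genotype and sample number, which the labels do not tie to an animal, gave -3.89, -2.67, 2.81 and 3.36. Chrm5 was too low to be tested by itself in 2 of those regions, and Egr2 in thalamus.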

How the results depend on the processing

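The number of genes called in KO against HET was 749 and came to 1165 with DESeq2 (748 of the 749 among them), 1291 with a replicate block, and 447 to 710 with 1 library left out. The same-numbered HET and KO libraries correlated from -0.34 to 0.47, above 0.1 in 3 of 5 pairs, and 2 of 5 HET libraries correlated best with their own number, so the numbers were not taken to pair libraries. The test of the second step against the first called 49 genes, 149 with DESeq2, 138 with the replicate block and 22 to 53 with 1 library left out. HET against WT rose from 1 to 3 calls with DESeq2. Of these, Gm13304 and Zbed6 had log2 values of 23.9 and 23.5, which are not taken as measured changes. The age test rose from 0 to 1 call with DESeq2, and also called 1 gene without the 4 libraries of high cortical score at 4 weeks. The share of 12-week calls with the same sign at 4 weeks, 93.0%, ran from 90.7% to 94.6% with 1 library of 4 weeks left out and was 90.6% without those 4 libraries, a setting chosen after seeing the data. Relative log expression factors, no filter, 2 genotypes and 1 surrogate variable gave 640 to 854 calls in KO against HET. Of the 73 named genes besides Akap11, 51 were on the same side of the threshold in every setting run, 21 lost a call in at least 1 setting, Arhgap36 gained one in 4, and none of the 73 changed direction. At the depth of these libraries, genes near 1 CPM or below it rest on fewer reads and their differences are less certain. Akap3 lay below it, at 0.0890 to 0.267 CPM in HET and 0.370 to 0.638 CPM in KO.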
